A study of Mus musculus with 7 samples.

Results

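The motile cilium and axoneme genes were read from RNA-Seq of RFP-positive cells of the embryonic mouse neocortex. They were chosen by name. A gene was a member if it was protein-coding in the GENCODE annotation of mouse build GRCm38 and its symbol began with Dnah, Dnai, Rsph or Cfap followed by a number, was a Dnal, Dnali or Tekt symbol ending in a number, or was Foxj1, Rfx2, Rfx3, Mcidas, Ccdc39, Ccdc40, Hydin or Spag6. The count table held 38124 genes, 21173 of them protein-coding, and 68 were members. The rule reads names alone. The annotation lists the dynein intermediate chains under the older symbols Dnaic1 and Dnaic2, so no gene matched the Dnai pattern, and those genes are given separately below.

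All embryos were heterozygous for Tis21-CreERT2, a knock-in that puts tamoxifen-dependent Cre under Tis21, a gene expressed in progenitors that generate basal progenitors or neurons, and all received tamoxifen. The neocortex was electroporated in utero at E13.5 with a control construct or a conditional Sox9 expression construct, and the cells were collected at E15.5, 48 hr later. Both constructs use a CAG promoter and a floxed membrane-GFP cassette, and after recombination express nuclear RFP either alone or with Sox9. The High RFP cells were sorted by FACS from cortices pooled over several embryos, and gave 3 control libraries, numbered 1, 2 and 4, and 4 libraries labelled Sox9. The labels call these biological replicates, and p-values measure the spread between such pools.

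Motile cilia beat because dynein arms on each outer microtubule doublet of the axoneme walk along the neighbouring doublet. The arms are placed by a molecular ruler of Ccdc39 and Ccdc40, and are controlled through radial spokes and a central pair of microtubules. In the brain, multiple motile cilia are borne by ependymal cells and by the choroid plexus epithelium, under the transcription factors Mcidas, Foxj1 and Rfx family members, whereas neural progenitors bear a single primary cilium, which lacks the dynein arms and central pair.

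Control libraries held 10465562 to 12907778 counts and those labelled Sox9 held 4429704 to 10520214. Values are given as CPM, that is, counts per 1000000 of a library's TMM-adjusted total. In such units 3 counts were worth 0.261 to 0.305 CPM in the controls and 0.284 to 0.629 CPM in the libraries labelled Sox9. The targeted gene was checked first. Sox9 mRNA stood at 34.6, 89.2 and 67.9 CPM in the controls and at 50.8, 41.1, 31.0 and 37.1 CPM in libraries 1 to 4 labelled Sox9, a log2 fold change, labelled Sox9 over control, of -0.68 ± 0.25 (SE; adjusted p = 0.0493, edgeR, not called). Counts of the targeted gene did not separate the groups in the direction of the labels, and directions below follow the labels. In sorted bulk cells, a change in the number of cells that hold an mRNA and a change in the amount per cell cannot be told apart.

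Since members of this group share regulators of the RFX and forkhead families, their promoters were read for the core letters of these factors' sites. RefSeq windows on GRCm38.p6, from 250 bases before to 50 after a gene's start, were found by symbol for 56 of the 68 members, all but Cfap53, Cfap54, Cfap65, Cfap73, Cfap97, Cfap157, Cfap299, Dnah3, Foxj1, Rsph1, Rsph4a and Rsph10b. The RFX core GTTGCC, searched on both strands, was present for 22 of these 56 members (39.3%), against 14.1% of all 27025 genes with a window and 12.5% of all 32851 windows. Among members with a window, it was present for 6 of the 18 called higher below and for 13 of the 27 tested and not called. The forkhead core TGTTTAC was present for 4 of 56 members and for 4.05% of all genes, and the Sox core ACAATGG for 1 of 56 members, Spag6, and for 4.15% of all genes. These letter matches are descriptions, not sites shown to be bound.

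The stretches below lie before a RefSeq start and in no annotated exon. For Dnah7b, Dnah17, Cfap43 and Tekt1 that start is internal, and the stretch lies within the gene's annotated span. They are shown for the 4 called members whose match had such flanks and for 4 of the others. One match is marked in each. They are written in the gene's direction with the matched letters in capitals, which read GGCAAC or GTAAACA where the match is on the other strand.
Dnah7a, chr1:53706954-53707009, minus strand: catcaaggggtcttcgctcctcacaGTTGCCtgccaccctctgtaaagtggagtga
Dnah7b, chr1:46066665-46066720, plus strand: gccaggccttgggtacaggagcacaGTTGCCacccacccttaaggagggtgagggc
Dnah17, chr11:118129389-118129445, minus strand: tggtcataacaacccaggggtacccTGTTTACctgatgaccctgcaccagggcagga
Cfap43, chr19:47837385-47837441, minus strand: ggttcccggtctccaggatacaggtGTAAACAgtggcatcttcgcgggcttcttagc
Mcidas, chr13:112993648-112993703, plus strand: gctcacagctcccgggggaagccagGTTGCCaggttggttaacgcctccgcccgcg
Rfx2, chr17:56831094-56831149, minus strand: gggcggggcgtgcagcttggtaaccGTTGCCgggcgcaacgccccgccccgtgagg
Tekt1, chr11:72361887-72361942, minus strand: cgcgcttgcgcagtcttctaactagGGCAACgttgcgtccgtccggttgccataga
Cfap20, chr8:95434933-95434988, minus strand: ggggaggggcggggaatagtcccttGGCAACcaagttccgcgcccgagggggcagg
The first 4 of these genes were called higher below, and the last 4 were not.

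Across the axoneme genes, the dynein heavy chains and several low-level structural genes stood higher with the Sox9 label, while the regulator Foxj1 was at the edge of detection in every library and the members at higher levels were not called. Of the 68 members, 53 passed the filter on low counts and 15 did not. In the edgeR quasi-likelihood test, called at an adjusted p under 0.01, 23 of the 53 were higher, against 9.96% of the 14267 protein-coding genes tested, and 0 were lower, against 3.88%. At an unadjusted p under 0.05, 33 members were higher, against 23.0% of the protein-coding genes tested, and 4 lower, against 19.4%. DESeq2 called 22 of 68 members higher, against 7.47% of the protein-coding genes, and 1 lower, against 6.16%. The median log2 fold change was 1.44 over the 53 members tested and -0.06 over all protein-coding genes tested. Genes at like levels also had positive medians, 1.21 for other protein-coding genes under 1 CPM per exonic kilobase and 1.70 for chemoreceptor genes, as described below. Every library labelled Sox9 exceeded every control for 32 of the 53 members, against 19.8% of the protein-coding genes tested.

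The count of called members changed with the libraries included and with the method, as did that of all genes. It was 14 without control replicate 2, with 4.60% of the protein-coding genes then higher, and 13 without Sox9 replicate 3, with 5.82% higher. Of the 23 called members, 12 stayed called whichever 1 library was left out and 11 did not. The scaling of DESeq2 within edgeR left the count at 23. Cyclic loess scaling, which removes changes that follow the level of expression, tested with limma, so that scaling and test changed together, left 7 members higher and 1 lower, against 2.21% of the protein-coding genes higher, and a median of 0.18. A replicate block by titles left 8 higher and 0 lower, with 2.38% of the protein-coding genes higher. Scaling on chemoreceptor genes, described below and added after seeing the data, left 1 higher and 17 lower, with a median of -0.25. Of the protein-coding genes, 0.624% were then higher and 72.5% lower.

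**Figure D1:**
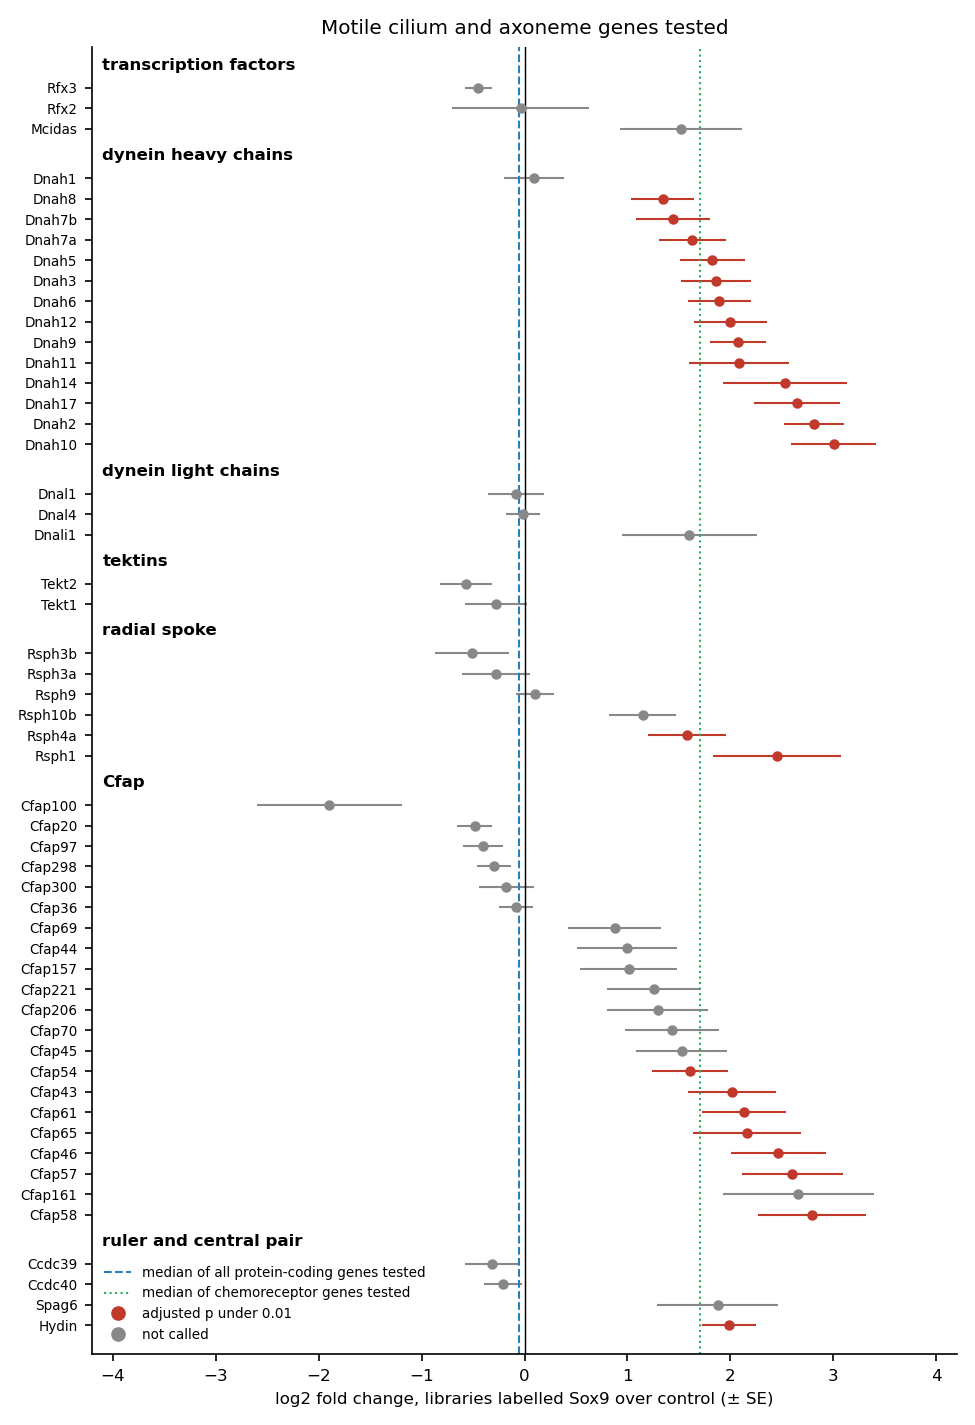
Log2 fold change (x axis) of the 53 members tested, grouped by role, with bars of 1 SE from the edgeR fit to 3 control and 4 Sox9-labelled libraries. Red points passed an adjusted p under 0.01, the dashed line marks the median of all protein-coding genes tested (-0.06), the dotted line that of the chemoreceptor genes tested (1.70), and 13 of the 14 heavy chains lie to the right in red.

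Of the transcription factors of the motile cilium programme, 3 were tested and edgeR called 0, with 1 higher and 1 lower at an unadjusted p under 0.05, and DESeq2 called 0 higher and 1 lower. Foxj1 (chr11:116330704-116335399), which turns on most motile cilium genes, had 2, 0 and 3 counts in control libraries 1, 2 and 4, and 1, 1, 1 and 0 counts in libraries 1 to 4 labelled Sox9. No library exceeded the level of 3 counts, so neither expression nor a difference was detectable at this depth, and Foxj1 was not tested. Mcidas, a geminin-related activator that starts multiciliation, had 5, 4 and 10 counts in the controls against 17, 18, 21 and 2. Its log2 fold change was 1.52 ± 0.59 (adjusted p = 0.0617), and library 4 labelled Sox9, the shallowest, lay within the range of the controls.

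Rfx3, which regulates genes of both primary and motile cilia, was at the highest level of the transcription factors among the members. It stood at 53.9, 55.9 and 50.6 CPM in the controls and at 41.8, 40.6, 36.6 and 37.5 CPM in the libraries labelled Sox9. These groups did not overlap, and the log2 fold change of -0.45 ± 0.13 missed the threshold in edgeR (adjusted p = 0.0195) and was called lower by DESeq2. Rfx2, its relative in multiciliated cells and testis, ran from 0.382 to 2.54 CPM in the controls and from 0.210 to 3.30 CPM in the libraries labelled Sox9, with a log2 fold change of -0.04 ± 0.67 (adjusted p = 0.973).

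Of 17 other listed regulators of multiciliation, 12 were tested, with 4 higher and 3 lower at an unadjusted p under 0.05. In edgeR 0 were called higher and 1 lower, as in DESeq2. The called gene was Gmnn, geminin, an inhibitor of DNA replication licensing, which fell from 16.5, 25.5 and 19.5 CPM in the controls to 11.3, 7.18, 6.60 and 9.02 CPM (log2 fold change -1.28 ± 0.24, adjusted p = 0.0019). Gmnc, which acts upstream of Mcidas, had 1 count in control library 2, 1 in library 1 labelled Sox9 and 0 in the rest. Ccno, the cyclin O of centriole amplification, had 1, 2 and 0 counts in the controls and 6, 2, 2 and 15 in the libraries labelled Sox9 and was not tested. Noto, Deup1, of the deuterosome that builds centrioles, and Foxn4 had log2 fold changes of 1.53 ± 0.47, 1.65 ± 0.51 and 2.53 ± 0.83 and missed the threshold (adjusted p = 0.0227, 0.0233 and 0.0305, edgeR). Foxn4 had no count in library 4 labelled Sox9. Tsga10 and Tfdp1, at higher levels, had log2 fold changes of -0.40 ± 0.16 and -0.29 ± 0.14.

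The dynein heavy chains are the motors of the axoneme, and 13 of the 14 were called higher. Beside these stand 9.96% of all protein-coding genes tested and 29.4% of other genes of like level and length, described below. Over all 14 the log2 fold change ran from 0.09 to 3.00, and its median was 1.94. For each of these 13, every library labelled Sox9 exceeded every control. Their summed level without Dnah1 was 26.7 ± 3.75 CPM (SD, n = 3) in the controls and 106 ± 15.3 CPM (SD, n = 4) in the libraries labelled Sox9, about 3.99-fold higher. Dnah1 was left out because it was not called, so the 3.99-fold value is a description only. With Dnah1 included, the sum was 3.21-fold higher. Beside it, the summed level of the chemoreceptor genes, described below, was 3.02-fold higher. DESeq2 called 13 of the 14 heavy chains, against 7.47% of all protein-coding genes, and limma after loess scaling called 6, against 2.21%. The replicates left out in turn left 8 to 11, against 4.60% to 8.93%.

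The outer arm chains set the beat frequency of the cilium, and all 5 were called, beside 29.4% of other genes of like level and length. Dnah9 stood at 3.06, 3.39 and 3.46 CPM in the controls and at 17.4, 10.1, 16.1 and 12.2 CPM in the libraries labelled Sox9 (log2 fold change 2.07 ± 0.27, adjusted p = 0.000226). Dnah5, which is mutated in primary ciliary dyskinesia, stood at 2.48, 1.74 and 2.14 CPM against 9.07, 6.80, 6.93 and 7.34 CPM (1.82 ± 0.31, adjusted p = 0.00118). In both the lowest library labelled Sox9 was well above the highest control.

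Dnah11, the outer arm chain known from left-right asymmetry, had an uneven control group of 3.06, 0.348 and 3.87 CPM against 8.72 to 11.8 CPM (2.08 ± 0.48, adjusted p = 0.00621), and missed the threshold on leaving out any of the 4 libraries labelled Sox9 (adjusted p = 0.0122 to 0.0146, edgeR). Dnah17, best known from sperm flagella, ran from 0.610 to 1.34 CPM in the controls and stood at 9.07, 4.82, 7.71 and 4.40 CPM in the libraries labelled Sox9 (2.65 ± 0.42). Dnah8, also of sperm, had the smallest log2 fold change of the called heavy chains, 1.34 ± 0.31, with 2.87 to 6.31 CPM against 9.17 to 16.0 CPM. Its call was lost without control replicate 1 or 2 or Sox9 replicate 1 or 3 (adjusted p = 0.0119 to 0.0217, edgeR).

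Among inner arm chains, which shape the bend of the cilium, 7 of 8 were called, beside 29.4% of other genes of like level and length. Dnah2 and Dnah10, which pair in 1 inner arm dynein, had the largest changes of the heavy chains. Dnah2 (chr11:69420809-69549110) stood at 2.10, 1.48 and 1.32 CPM in the controls and at 11.4, 10.8, 12.2 and 12.0 CPM in the libraries labelled Sox9 (2.81 ± 0.29, adjusted p = 4.9e-05). Its 4 values with the Sox9 label lay close to each other and far from the controls. Dnah10 stood at 1.62, 1.04 and 0.407 CPM against 9.89, 6.61, 8.61 and 8.39 CPM (3.00 ± 0.41, adjusted p = 0.000283).

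The single-headed inner arm chains Dnah3, Dnah6, Dnah7a, Dnah7b and Dnah12 had log2 fold changes of 1.44 to 2.00. Dnah6 was the highest of these per exonic kilobase, at 1.91 to 3.25 CPM in the controls and 7.37 to 11.3 CPM in the libraries labelled Sox9. Dnah7a and Dnah7b are near-identical copies, and their counts are uncertain because reads could have been split between them. Dnah7a was not called without control replicate 2 or Sox9 replicate 3, and Dnah7b lost its call on leaving out any library but Sox9 replicate 4. Dnah1, the remaining inner arm chain, was the 1 heavy chain not called, with 8.12, 11.8 and 8.95 CPM against 5.36, 13.9, 11.3 and 10.3 CPM (0.09 ± 0.29, adjusted p = 0.839). Dnah14, whose arm is less clear, was the lowest heavy chain per exonic kilobase, with 5, 1 and 3 counts against 10, 14, 16 and 12 (2.53 ± 0.60, adjusted p = 0.00692), and lost its call on leaving out any control or Sox9 replicate 3 or 4 (adjusted p = 0.0111 to 0.0377, edgeR).

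**Figure D2:**
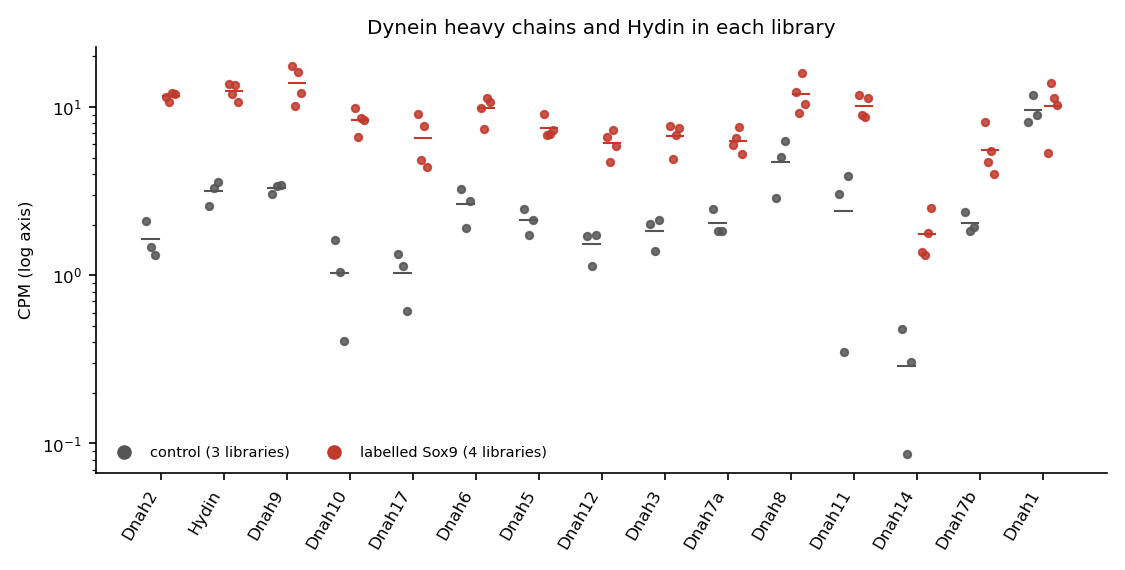
CPM (y axis, log scale) of the 14 dynein heavy chains and Hydin in each library, with 3 control libraries in grey and 4 libraries labelled Sox9 in red and horizontal lines at the group means. Red points lie above grey points for every gene but Dnah1, where the controls at 8.12 to 11.8 CPM lie within the range of the libraries labelled Sox9.

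The smaller dynein subunits follow. The light chains Dnal1, Dnal4 and Dnali1 were tested, and edgeR, DESeq2 and limma each called 0, with 1 higher and 0 lower at an unadjusted p under 0.05 in edgeR. Dnal4 stood at 31.1 to 43.6 CPM in the controls and 33.1 to 43.9 CPM in the libraries labelled Sox9 (-0.02 ± 0.17), and Dnal1 at 6.31 to 7.56 CPM against 4.70 to 7.97 CPM (-0.08 ± 0.27). Dnali1, the light intermediate chain of the inner arms, stood at 0.0956, 0.174 and 0.814 CPM against 1.10, 1.04, 1.34 and 0.839 CPM (1.60 ± 0.65, adjusted p = 0.0719), so that its groups did not overlap. Of the intermediate chains outside the naming rule, Dnaic1 rose from 2, 4 and 4 counts to 22, 14, 14 and 8 (2.53 ± 0.56, adjusted p = 0.00497), and Dnaic2 had 9 to 20 counts against 10 to 26 (0.76 ± 0.44, adjusted p = 0.193).

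Tektins form filaments inside the doublet. Of the 2 tested, edgeR and DESeq2 called 0, with 0 higher and 1 lower at an unadjusted p under 0.05. Tekt2 stood at 18.3, 31.5 and 18.6 CPM against 12.2, 18.3, 19.7 and 10.5 CPM (-0.57 ± 0.26, adjusted p = 0.0994) and Tekt1 at 5.30 to 11.7 CPM against 5.66 to 7.28 CPM (-0.28 ± 0.30). The filter removed Tekt3, Tekt4 and Tekt5, and Tekt4 and Tekt5 had at most 2 counts in any library.

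Among 6 radial spoke genes tested, Rsph4a and Rsph1, both of the spoke head, were called higher, calls that several fits did not keep. Beside them stand 9.96% of all protein-coding genes tested and 23.4% of the others under 1 CPM per exonic kilobase, the class of both. Rsph4a stood at 1.15, 1.82 and 1.22 CPM in the controls and at 4.40, 3.40, 4.92 and 4.19 CPM in the libraries labelled Sox9 (1.58 ± 0.38, adjusted p = 0.00711), and lost its call on leaving out any library but Sox9 replicate 2 (adjusted p = 0.0111 to 0.0269, edgeR). Rsph1 had 2, 4 and 1 counts against 13, 8, 13 and 5 (2.45 ± 0.63, adjusted p = 0.00971), and was called neither by DESeq2 nor by edgeR on leaving out any control. Rsph9, another spoke head gene, was the highest of the family per exonic kilobase, at 18.1 to 20.2 CPM against 17.1 to 25.5 CPM (0.10 ± 0.19, adjusted p = 0.712). Rsph3a and Rsph3b, near-identical copies of a spoke stalk gene, had log2 fold changes of -0.28 ± 0.33 and -0.51 ± 0.36. Rsph10b missed the threshold (1.15 ± 0.33, adjusted p = 0.0171) and shares exonic sequence with Pms2 on the same strand. Rsph6a and Rsph14 were not tested and had at most 3 counts in any library.

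Hydin, a very large protein of a central pair projection whose loss causes hydrocephalus in mice, was the gene of smallest p after Dnah2. On chr8:110266977-110610253, it stood at 2.58, 3.30 and 3.56 CPM in the controls and at 10.7 to 13.7 CPM in the libraries labelled Sox9 (1.99 ± 0.26, adjusted p = 0.000223). Spag6, another central pair protein, had 4, 2 and 6 counts against 7, 11, 16 and 10 (1.87 ± 0.58, adjusted p = 0.0249). The ruler genes were at higher levels and were not called. Ccdc39 stood at 10.1 to 19.8 CPM against 8.93 to 16.5 CPM (-0.31 ± 0.26) and Ccdc40 at 28.8 to 42.4 CPM against 24.5 to 36.4 CPM (-0.21 ± 0.18).

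Cfap genes name cilia and flagella associated proteins of many kinds, and 7 of the 21 tested were called higher, beside 9.96% of all protein-coding genes tested and 23.4% of the others under 1 CPM per exonic kilobase, the class of all 7. Cfap46 and Cfap54, of a central pair projection, rose by log2 fold changes of 2.47 ± 0.46 and 1.61 ± 0.37. Cfap46 was uneven in the controls, at 0.765, 0.521 and 2.24 CPM, all below the 4.81 to 7.83 CPM of the libraries labelled Sox9. Cfap61, of the complex at the base of the radial spokes, stood at 1.72, 1.04 and 0.814 CPM against 7.42, 4.54, 4.92 and 4.19 CPM (2.13 ± 0.41, adjusted p = 0.0021).

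Cfap43, which tethers an inner arm dynein, stood at 0.608 to 0.765 CPM against 2.61 to 3.24 CPM (2.01 ± 0.43). The other called members, Cfap57, Cfap58 and Cfap65, had 2 to 10 counts in the controls and 10 to 25 in the libraries labelled Sox9, with log2 fold changes of 2.16 to 2.79. These low counts set the precision of their values. Leaving out 1 library ended the call of Cfap58 (control replicate 2), of Cfap43 (any control or Sox9 replicate 3), of Cfap54 (control replicate 2 or 4, or Sox9 replicate 3 or 4) and of Cfap65 (any library but control replicate 2 or Sox9 replicate 2).

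Cfap20, a protein of the inner junction of the doublet that is also found in primary cilia, was the member at the highest level per exonic kilobase. It stood at 117, 160 and 110 CPM in the controls and at 110, 90.4, 67.4 and 101 CPM in the libraries labelled Sox9 (-0.48 ± 0.17, adjusted p = 0.0407). Cfap298 and Cfap300, which act in the cytoplasm to assemble dynein arms, had log2 fold changes of -0.30 ± 0.16 and -0.18 ± 0.27. Cfap36 and Cfap97 gave -0.08 ± 0.16 and -0.40 ± 0.19.

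Cfap44, Cfap45, Cfap70, Cfap161, Cfap206 and Cfap221 lay above the controls in every library labelled Sox9 and missed the threshold (adjusted p = 0.0143 to 0.125, edgeR). Cfap69 and Cfap157 had log2 fold changes of 0.88 ± 0.45 and 1.01 ± 0.47 with groups that overlapped. Cfap100 had 7, 33 and 13 counts against 8, 2, 1 and 2 (-1.90 ± 0.70, adjusted p = 0.0511) and was the member called lower by limma after loess scaling. The 9 Cfap genes that the filter removed had at most 13 counts in any library.

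The calls followed the level of the gene. With levels given per kilobase of annotated exon, 53 members lay under 1 CPM per kilobase, of which 38 were tested and 23 were called higher (60.5%), and their median log2 fold change was 1.84. The filter leaves out 15 of the 53, and a gene low in the controls could pass it through the libraries labelled Sox9 alone, so this share and median, and those of other genes in the class, are descriptions only. Of the 38, 9 had under 10 counts in every control, and 5 of those 9 were among the called. Of the other protein-coding genes in that class, 23.4% of 4120 were called higher, with a median of 1.21. The 15 members of at least 1 CPM per kilobase, among them Cfap20, Cfap298, Dnal4, Rsph9, Cfap36, Tekt2 and Rfx3, had a median of -0.28, and 0 were called in edgeR, with 2 higher and 3 lower at an unadjusted p under 0.05. DESeq2 called 0 of these higher and 1 lower, limma called 0, and 4.31% of the 10094 other protein-coding genes of that class were called higher.

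Length adds counts, and the heavy chains are long. Among genes under 1 CPM per kilobase with at least 12 exonic kilobases, 15 of the 16 members tested were called higher, with a median log2 fold change of 1.94, against 29.4% of 309 other protein-coding genes, with a median of 0.86. Ttn, the gene of the giant muscle protein titin, was among these others, with a log2 fold change of 1.93 ± 0.27. The members' share was above that of other genes of like level and length, but members were not chosen to match in other respects, and no test of this difference was made.

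**Figure D3:**
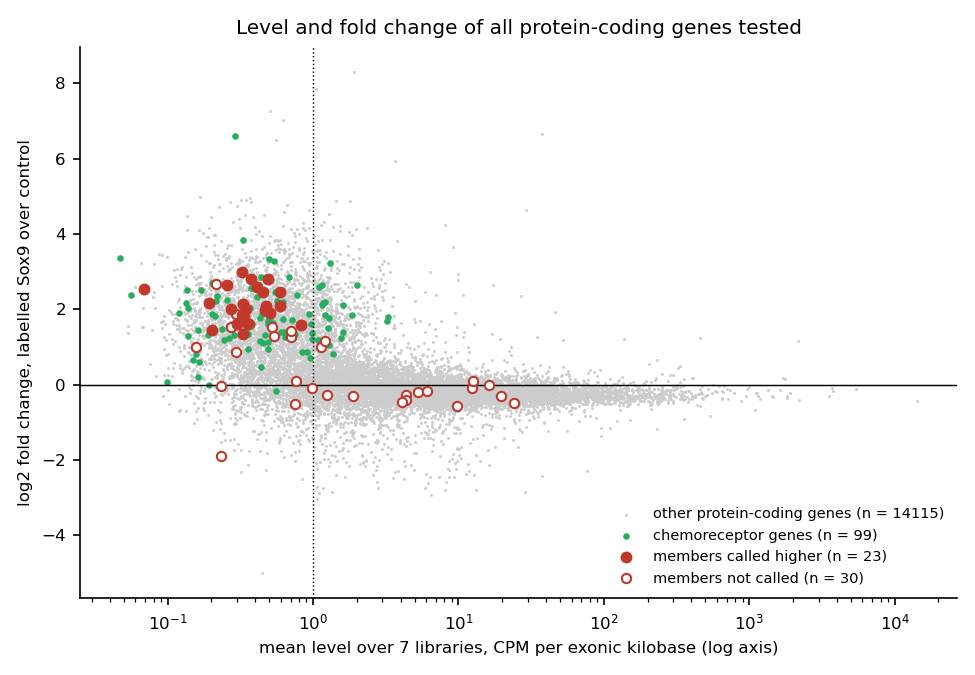
Log2 fold change (y axis) against mean level over 7 libraries in CPM per exonic kilobase (x axis, log scale) for 14267 protein-coding genes tested. Members called higher (filled red, n = 23) and chemoreceptor genes (green, n = 99) lie mostly left of the dotted line at 1 CPM per kilobase, where other genes (grey) are also mostly above 0, and members not called (open red, n = 30) include all 15 members at or beyond the line.

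Chemoreceptor genes, the olfactory, vomeronasal, taste and trace amine receptors of sensory cells, are used mainly outside the brain and served as a reference. Of 1372 such genes, 99 passed the filter, 13.1% of those were called higher, and their median log2 fold change was 1.70. A gene could pass the filter through the libraries labelled Sox9 alone, 931 of the 1372 never exceeded 3 counts, and 97 of the 99 lay above 0. Without the filter the median was 1.66 over 1165 such genes in edgeR and 1.26 in DESeq2. Sums over all 1372 genes do not depend on the filter. Their summed level ran from 113 to 155 CPM in the controls and from 342 to 481 CPM in the libraries labelled Sox9. Per kilobase of whole gene span, introns included, that was 0.00950 to 0.0130 CPM in the controls and 0.0287 to 0.0404 CPM in the libraries labelled Sox9.

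The 14 heavy chains, summed on the same scale, gave 0.0113 to 0.0125 CPM per kilobase of span in the controls and 0.0333 to 0.0423 CPM in the libraries labelled Sox9. In each library, that was 0.943 to 1.19 times the chemoreceptor level. Without Dnah1, the 1 heavy chain not called, the sum was 0.00755 to 0.00976 CPM per kilobase of span in the controls. It was 0.0294 to 0.0408 CPM in the libraries labelled Sox9. The 53 members under 1 CPM per exonic kilobase, summed, stood at 0.884 to 1.20 times the chemoreceptor level, and the 15 higher members at 13.7 to 84.7 times. Taken singly, the 23 called members ran from 0.105 to 11.1 times it in the controls, with a median of 0.791. With the Sox9 label they ran from 0.209 to 11.1 times it, with a median of 1.11. These were called on their change, so the shift is a description only. Per kilobase of exon, the heavy chains were well above the chemoreceptors, at 0.154 to 0.170 CPM against 0.0228 to 0.0312 CPM in the controls. Whether reads in introns were counted is not given in the sources used here.

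**Figure D4:**
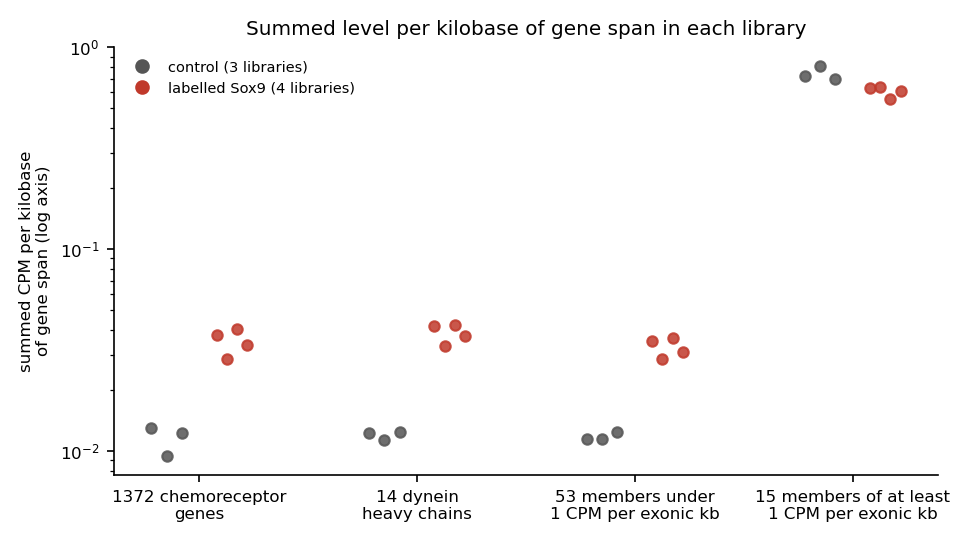
Summed CPM per kilobase of gene span (y axis, log scale) in each of 3 control libraries (grey) and 4 libraries labelled Sox9 (red) for chemoreceptor genes and 3 sets of members. The sums of the 14 heavy chains, Dnah1 included, and of the 53 members under 1 CPM per exonic kilobase lie near the chemoreceptor level in both groups (0.884 to 1.20 times it in each library). The 15 higher members lie at 13.7 to 84.7 times it.

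Libraries were also scaled so that the median of the 99 tested chemoreceptor genes did not differ between groups, a choice made after seeing the data. This moved the median of all protein-coding genes to -1.75. It left 1 member called higher, Dnah2 (1.12, adjusted p = 0.00381, edgeR), against 0.624% of the protein-coding genes, and 17 called lower, against 72.5%. The median of the 14 heavy chains was then 0.25, and Dnah7a, Dnah7b and Dnah8 were among the 17 members, of 37 above 0 before, that turned below 0. Hydin was at 0.29 (adjusted p = 0.353, edgeR) and Dnah10 at 1.31 (adjusted p = 0.0103). The part of the rise in chemoreceptor counts in the members' changes was not tested.

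Other structural genes of the axoneme were taken from lists outside the naming rule. Of 13 dynein docking and nexin-dynein regulatory complex genes tested, 3 were called higher and 0 lower, with a median of 1.59, beside the 23.4% of other protein-coding genes under 1 CPM per exonic kilobase and the chemoreceptor median of 1.70. At an unadjusted p under 0.05, 9 were higher and 0 lower, and DESeq2 called 3 higher and 0 lower. Ccdc114 and Ttc25, which dock the outer arm, stood at 1.82 to 3.15 CPM and 1.43 to 2.44 CPM in the controls and at 6.71 to 15.1 CPM and 6.92 to 9.73 CPM in the libraries labelled Sox9. Drc3, of the nexin complex, had a log2 fold change of 1.72 ± 0.39, whereas Gas8, of the same complex and at the highest level per kilobase of this list, had -0.04 ± 0.15. Mycbp had -0.13 ± 0.21.

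Of 23 central pair and microtubule inner protein genes tested, 3 were called higher, beside 9.96% of all protein-coding genes tested and 23.4% of the others under 1 CPM per exonic kilobase. These were Wdr63, Ccdc146 and Spag17, with log2 fold changes of 2.36 ± 0.55, 1.79 ± 0.43 and 1.23 ± 0.29. Mns1 was called lower (-1.06 ± 0.27, adjusted p = 0.00996), and the median of the list was 0.91. Stk36 and Wdr66, at higher levels, had -0.23 ± 0.14 and 0.51 ± 0.25. Of 12 dynein arm assembly factors tested, 1 was called, a share near the 9.96% of all genes. This was Dyx1c1, which stood at 1.30 to 2.44 CPM in the controls and 5.03 to 7.15 CPM in the libraries labelled Sox9 (1.66 ± 0.35, adjusted p = 0.00398), and the median of the list was 0.13. Pih1d1 and Dnaaf3 missed the threshold, with log2 fold changes of -0.43 ± 0.12 and 1.49 ± 0.46 (adjusted p = 0.0144 and 0.0237, edgeR), and Pih1d3 had no count in any library. The chaperone subunits Ruvbl1 and Ruvbl2, which every cell uses, were at high levels and had log2 fold changes of -0.43 ± 0.15 and -0.17 ± 0.13.

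Genes that build all cilia, primary cilia included, were then read. Of 31 intraflagellar transport genes tested, edgeR called 0, with 0 higher and 4 lower at an unadjusted p under 0.05, DESeq2 and limma also called 0, and the median was -0.14. Ift74, Ttc30b and Ift122 had the smallest p of these, with log2 fold changes of -0.50 ± 0.19, -0.56 ± 0.22 and -0.38 ± 0.16. Kif3a, Ift46 and Ift27, at the highest levels, had 0.05 ± 0.12, -0.23 ± 0.11 and -0.24 ± 0.12. Their summed level was 1575 ± 83.5 CPM (SD, n = 3) in the controls and 1440 ± 39.7 CPM (SD, n = 4) in the libraries labelled Sox9. Of 30 BBSome and transition zone genes tested, 1 was called, Bbs2, lower (-0.74 ± 0.17, adjusted p = 0.0053), and the median was -0.19. That share is near the 3.88% of all protein-coding genes tested that were lower. Bbip1, Bbs7, Arl3 and Bbs4 had log2 fold changes of -0.39 ± 0.13, -0.60 ± 0.21, -0.29 ± 0.12 and -0.19 ± 0.13.

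Markers of the cells that bear motile cilia were then examined. Of 19 ependymal cell markers, 8 were tested, 7 of these lay above 0, and the median log2 fold change was 1.52. At an unadjusted p under 0.05, 5 were higher and 0 lower, and DESeq2 called 3 higher and 0 lower. In edgeR 3 of the 8 were called higher, and limma after loess scaling called 0. Beside these stand the 9.96% of all protein-coding genes tested, the 23.4% of others under 1 CPM per exonic kilobase and the chemoreceptor median of 1.70. The 3 called by edgeR were Hdc, Calml4 and S100b, with log2 fold changes of 2.81 ± 0.47, 2.47 ± 0.48 and 2.76 ± 0.70. Hdc makes histamine and S100b is also a glial marker. Some other markers of the list were at the floor, with at most 2 counts of Ccdc153, 1 of Tmem212 and 3 of Fam183b in any library, and 4 of the 19 markers did not exceed 3 counts anywhere. Ezr had a log2 fold change of 0.25 ± 0.19. The summed level of the list, mostly Cd24a, ran from 883 to 1049 CPM in the controls and 846 to 1101 CPM in the libraries labelled Sox9.

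Of 18 choroid plexus markers, 12 were tested, 6 were called higher and 0 lower, and the median log2 fold change was 1.94. Beside these stand the 9.96% of all protein-coding genes, the 23.4% of others under 1 CPM per exonic kilobase and the chemoreceptor median of 1.70. At an unadjusted p under 0.05, 10 were higher and 0 lower, and DESeq2 called 7 higher and 0 lower. Ttr, the thyroid hormone carrier that choroid plexus secretes in bulk, had 1, 6 and 1 counts in the controls against 54, 53, 14 and 23 (4.16 ± 0.68, adjusted p = 0.000867). Enpp2, the lysophospholipase autotaxin, stood at 7.46, 6.69 and 6.92 CPM against 126, 84.0, 27.7 and 115 CPM (3.64 ± 0.40, adjusted p = 6.31e-05). Library 3 labelled Sox9 was the lowest of its group for both Ttr and Enpp2 and the highest for Kcne2, a potassium channel subunit.

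The water channel Aqp1 and the tight junction protein Cldn2, both also of choroid plexus, had at most 2 counts in any library. The summed level of the 18 markers ran from 24.0 to 26.0 CPM in the controls and from 78.3 to 187 CPM in the libraries labelled Sox9. Most of the mean sum in the libraries labelled Sox9 was Enpp2. Prlr, Folr1, Kcne2 and Trpm3 were the other called markers, and Sostdc1 had a log2 fold change of -0.91 ± 0.54. The choroid plexus list and the heavy chains were both higher with the Sox9 label. Among those libraries, the summed heavy chains were highest in library 3, at 128 CPM, where Ttr and Enpp2 were lowest and Kcne2 highest. The part of this list in the heavy chains' change was not tested.

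**Figure D5:**
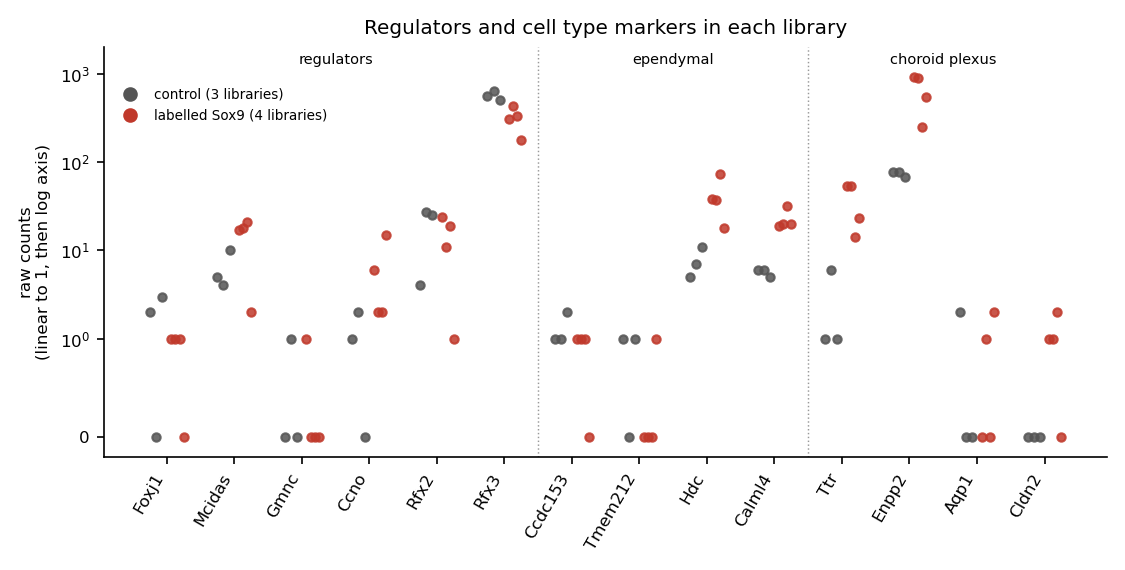
Raw counts (y axis, linear to 1 and then log) in 3 control libraries (grey) and 4 libraries labelled Sox9 (red) for 6 regulators, 4 ependymal markers and 4 choroid plexus markers. Foxj1, Gmnc, Ccdc153, Tmem212, Aqp1 and Cldn2 stay at 3 counts or fewer in every library, while Ttr and Enpp2 are separated between the groups.

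Markers of other cell types were read the same way, with no test of any list. Of 11 radial glia markers tested, 7 were called lower (Prom1, Slc1a3, Vim, Ednrb, Pax6, Fabp7 and Ttyh1), beside 3.88% of all protein-coding genes, with a summed level of 657 to 1241 CPM in the controls against 318 to 468 CPM, and 2 of 8 intermediate progenitor markers, Eomes and Btg2, were called lower. Endothelial markers had 2 of 7 called higher, Flt1 and Kdr, beside 23.4% of other genes under 1 CPM per exonic kilobase, with a sum of 6.12 to 14.3 CPM against 18.9 to 49.2 CPM. The ratio of mean sums was 3.25, and that of the chemoreceptor genes 3.02. Of mural and meningeal markers 1 of 8, Col1a1, and of microglia markers 1 of 10, C1qa, were called higher, shares near the 9.96% of all protein-coding genes. DESeq2 called 3 mural and meningeal markers higher, and 5 were higher and 0 lower at an unadjusted p under 0.05 in edgeR. Their sum was 10.5 to 13.1 CPM in the controls against 17.5 to 33.8 CPM, a ratio of mean sums of 2.40. Of 12 neuron markers tested edgeR called 0, with 1 higher and 4 lower at an unadjusted p under 0.05, DESeq2 called 1 lower and limma 0, and their sum was 15371 to 19140 CPM against 14291 to 16622 CPM. The part of these markers' cells in the members' changes was not tested.

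The deposited FPKM values were low for most members. Of the 66 members with a value, 5 had a mean of at least 1 FPKM over the 7 libraries, and the authors' values for the 14 heavy chains gave group means of 0.001 to 0.138 FPKM in the controls and 0.00775 to 0.170 FPKM in the libraries labelled Sox9. The length that links counts to FPKM matched the whole gene span within 5% for all 17 members that could be checked and the exonic length for 0. Long genes such as the heavy chains are therefore listed at lower FPKM than exonic length would give.

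Strand was not stated for the counting, and exons of 31 members overlap an exon of another gene on either strand, including 13 of the called members. Reads of Dnah3 and Lyrm1, Dnah11 and Cdca7l, Dnah14 and Lbr, and Cfap61 and Crnkl1, which lie on opposite strands, could not be told apart where they overlap.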

How the data were processed

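Sorted-cell RNA was primed with poly-dT, template-switched and amplified by PCR before library preparation, with no molecular identifiers described, and reads were single-end and trimmed with cutadapt. The submitters' processing notes name bcl2fastq 2.17.1.14, STAR 2.5.2b and GRCm38. The deposited files hold raw counts, which the authors left unnormalized, for each Ensembl gene, and FPKM values, described in the methods as per kilobase of exon, which were used here only as levels. The counting program and its use of strand and introns are not given in the sources used here.

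All 7 libraries entered the fit and no column was left out. Groups and replicate numbers were taken from sample titles, and the third control has another number in its description. Symbols and coordinates came from GENCODE M21, by Ensembl identifier, for 36345 of 38124 genes. Counts were tested with edgeR 4.0.16 (R 4.3.3) by the two-sided quasi-likelihood test, with TMM scaling and filterByExpr, no covariate, and Benjamini-Hochberg adjustment over all 16522 genes tested. Genes were called at an adjusted p under 0.01. SE is the absolute log2 fold change divided by the square root of F. CPM were computed on TMM-scaled library sizes. The deepest library had 12907778 counts and the shallowest 4429704, and a level of 3 counts was taken as the floor, which covers counting error only. DESeq2 1.42.0, limma 3.58.1 with cyclic loess, other filters, a 1.5-fold threshold, a threshold of 0.05, leaving out each library, and a replicate block were alternatives. The test was checked on simulated data. Members and gene lists were chosen with earlier results of these data known. Named genes are the members given by full name, the 20 called members of smallest p, and in each role or list the 3 genes of smallest p, the 3 of highest level and those called. For markers of cell types without motile cilia, the called genes alone are named. Other members and markers were named, and the promoter windows picked, after their values were seen. The chemoreceptor scaling was added after seeing the data.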

Additional observations from a re-analysis of the deposited data

Results flagged for a closer look

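For 4 of 62 members with more than 3 counts in some library, 1 of the 4 libraries labelled Sox9 stood apart from the other 3 by Dixon's test at the 95% level. Chance sets about 1 in 20 groups apart, so a few are no pattern. Cfap57 was at 3.36 CPM in library 4, against 2.27 to 2.35 CPM in the others, all above the controls. Cfap97d1 was at 1.89 CPM in library 4, the shallowest, against 0.112 to 0.189 CPM. Cfap77 and Cfap97d2 were at 0.559 CPM and 0.671 CPM in library 3, against 0 and 0 to 0.0945 CPM in the others. Of these, Cfap57 was the only called member.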

How the results depend on the processing

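The count of members called higher, 23 beside 9.96% of the protein-coding genes tested, was 7 with cyclic loess and limma, beside 2.21%. It was 13 where at least 10 counts were required in every library, beside 5.05%. It was also 13 against a 1.5-fold change, beside 4.98%, and 13 to 21 when 1 library was left out, beside 4.60% to 8.93%. Deviations of same-numbered libraries from their group means, in log CPM, correlated at -0.0356 to 0.118. Differently numbered libraries were not compared, so whether the numbers pair the libraries was not settled. A replicate block by titles left 8 calls, against 2.38% of protein-coding genes higher, and by descriptions 13, against 5.90%. Scaling on chemoreceptor genes, added after seeing the data, left 1 higher and 17 lower, against 0.624% of protein-coding genes higher and 72.5% lower. Lower calls, 0 in the main test and 0 without each library, numbered 1 with DESeq2 (Rfx3), 1 without a filter (Cfap20), 1 with cyclic loess (Cfap100) and 2 at a threshold of 0.05 (Cfap20 and Rfx3). The median log2 fold change, 1.44, was 0.185 with cyclic loess, 0.233 with at least 10 counts, where 28 members remained, 1.25 to 1.61 without 1 library, and -0.249 with chemoreceptor scaling, which turned 17 of the 37 members above 0, among them the called Cfap54 (-0.0872), Dnah7a (-0.0649), Dnah7b (-0.249), Dnah8 (-0.354) and Rsph4a (-0.111). Dnah2, Dnah5, Dnah6, Dnah9 and Hydin passed under all 17 other settings and Dnah10 and Dnah17 under all 16 that kept them. Chemoreceptor scaling is not among these 17. The cause of these differences was not tested. Depth limits the 15 members the filter removed, Foxj1 among them, and those with few counts in the controls.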
